A study of Homo sapiens with 8 samples.

Results

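Keratins are the intermediate filament proteins of epithelial cells, and 10 of them are described here: the basal and stratified keratins KRT5, KRT14, KRT15, KRT6A, KRT16 and KRT17, and the luminal or simple-epithelial keratins KRT7, KRT8, KRT18 and KRT19. They were chosen by symbol, through the Ensembl identifiers of a gene count table, and are 10 of its 60617 genes. The cells were MCF-10A, an established non-tumorigenic human breast epithelial line, in 2 versions labelled Empty and NeuT. The labels do not say what the NeuT line carries, or whether either line is a clone. Each line was left untreated or given JG-98, an inhibitor of the Hsp70 chaperones, at 1 µM for 12 h. All 8 libraries, 2 in each of the 4 groups, came from cells in a medium with horse serum, epidermal growth factor, hydrocortisone, insulin and cholera toxin. RNA was enriched for poly(A) tails before sequencing.

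A keratin filament is built from heterodimers of a type II and a type I chain, so every epithelial cell makes at least one of each type. In the mammary gland, KRT5 with KRT14 or KRT15 marks the basal layer, KRT8 with KRT18 or KRT19 and the type II keratin KRT7 mark luminal cells, and KRT6A with KRT16 or KRT17 is known from activated, wounded and hyperproliferative stratified epithelium. Among these 10 genes the type II chains are KRT5, KRT6A, KRT7 and KRT8, and the others are type I chains. The type II genes sit together on chromosome 12 and the type I genes on chromosome 17, except KRT18, which lies next to KRT8 on chromosome 12.

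Some of these genes are near copies of each other, which limits how reads can be divided among them. Coding sequence of KRT6A (principal GENCODE 29 transcript) was 97.5% identical to that of KRT6B and 97.9% identical to that of KRT6C, and KRT14 was 88.6% identical to KRT16 and 85.2% to KRT17 over the aligned bases. The stretches below are shown because they hold the longest identical run of a pair, 269 bases between KRT6A and KRT6B and 158 bases between KRT14 and KRT16, so that a read lying inside a run cannot be assigned to either gene by its sequence. Each is a coding stretch within 1 exon, on the minus strand of GRCh38, written 5′ to 3′. Capitals mark positions at which the genes shown together differ.
KRT6A, chr12:52492758-52493056: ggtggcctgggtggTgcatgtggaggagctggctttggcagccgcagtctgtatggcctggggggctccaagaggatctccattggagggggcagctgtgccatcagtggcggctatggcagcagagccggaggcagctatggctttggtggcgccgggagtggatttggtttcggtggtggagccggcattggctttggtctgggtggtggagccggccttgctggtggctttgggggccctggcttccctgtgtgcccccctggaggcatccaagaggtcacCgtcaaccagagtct
KRT6B, chr12:52451648-52451946: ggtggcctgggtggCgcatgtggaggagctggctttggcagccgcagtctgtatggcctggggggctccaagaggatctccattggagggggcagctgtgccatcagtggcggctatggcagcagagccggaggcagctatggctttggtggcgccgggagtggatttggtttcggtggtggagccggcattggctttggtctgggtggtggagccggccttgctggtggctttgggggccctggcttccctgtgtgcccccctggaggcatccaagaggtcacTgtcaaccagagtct
KRT14, chr17:41586353-41586540: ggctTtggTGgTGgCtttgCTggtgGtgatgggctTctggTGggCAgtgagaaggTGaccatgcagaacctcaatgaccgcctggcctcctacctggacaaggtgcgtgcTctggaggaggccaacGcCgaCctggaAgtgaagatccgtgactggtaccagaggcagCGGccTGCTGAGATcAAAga
KRT16, chr17:41612201-41612388: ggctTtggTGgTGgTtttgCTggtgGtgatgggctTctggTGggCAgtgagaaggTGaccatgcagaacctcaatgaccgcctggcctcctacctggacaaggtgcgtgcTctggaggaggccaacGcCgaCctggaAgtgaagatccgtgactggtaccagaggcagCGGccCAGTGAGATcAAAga
KRT17, chr17:41624121-41624308: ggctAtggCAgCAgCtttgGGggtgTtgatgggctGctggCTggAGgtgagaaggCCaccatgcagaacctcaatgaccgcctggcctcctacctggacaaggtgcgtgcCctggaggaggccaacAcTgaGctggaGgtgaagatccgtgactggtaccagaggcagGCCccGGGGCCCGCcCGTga
The KRT6B stretch differs from KRT6A at 2 of 299 bases, and the same stretch of KRT6C at 0. Of 188 bases, KRT16 differs from KRT14 at 4 and KRT17 at 34. Over whole transcripts, 32.1% of all stretches of 50 bases in KRT6A also occur in another gene, mainly KRT6C and KRT6B, against 16.8% in KRT14, 16.5% in KRT16 and 9.02% in KRT17. For KRT18 the share was 24.5% and for KRT8 16.1%, partly with each other and partly with their many processed pseudogenes. It was 5.70% or less in KRT7, KRT5, KRT15 and KRT19. How the authors' counting treated reads that map to several genes is not given in the sources used here, so the levels of KRT6A, KRT6B, KRT6C, KRT14, KRT16, KRT8 and KRT18 carry that uncertainty.

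Library totals were 37341458 counts in Empty treated replicate 1 and between 55050996 and 56861971 in the other 7 libraries. At these depths a count of 0 allows up to 0.0803 CPM, the field's unit for counts relative to library size, in the shallowest library and 0.0528 in the deepest, counting error only. The 10 keratins together took between 3.15% and 3.67% of all counts in a library. The replicates of the treated NeuT group differed most, with a chi-square of 19.9 per gene against 4.27 to 7.54 in the other 3 groups. Results that change without 1 of those libraries are given with and without it. No label says whether replicates were separate cultures, so the p-values measure the spread between these libraries, which may be technical. With 1 Empty and 1 NeuT line, the line label and any other difference between these cultures cannot be told apart.

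All 10 keratins were detected in every library, and 9 of them were abundant. The order of levels between genes is given per length, as RPKM, the scaled CPM per 1000 exonic bases of the count table. In untreated Empty cells KRT6A was the highest at 2156 RPKM ± 0.881 (SD, n = 2), followed by KRT17 at 1980 ± 96.3, KRT7 at 1391 ± 42.3, KRT5 at 1331 ± 5.34 and KRT14 at 1273 ± 47.4. KRT16 followed at 386 ± 5.31 RPKM, then KRT15 at 288 ± 2.52, KRT8 at 280 ± 6.77 and KRT18 at 221 ± 1.51. KRT19, a type I chain of luminal cells, was far below the rest at 1.89 RPKM ± 0.0998. KRT15 and KRT8 differed by little more than the spread of KRT8. In untreated NeuT cells the order was KRT6A at 3815 RPKM ± 159, KRT5 at 1939 ± 13.3, KRT17 at 1551 ± 2.49, KRT14 at 1169 ± 24.3, KRT7 at 1133 ± 59.3, KRT15 at 424 ± 12.2, KRT18 at 316 ± 3.86, KRT8 at 314 ± 11.8, KRT16 at 280 ± 3.25 and KRT19 at 2.11 ± 0.229. KRT14 and KRT7 there, and KRT18 and KRT8, overlapped between libraries. KRT5 thus ranked 4 in untreated Empty and 2 in untreated NeuT cells, and KRT16 ranked 6 and 9. The order depends on the length used, for example for KRT7 and KRT8, whose exons of all transcripts together (3999 and 6881 bases) are much longer than the principal transcript (1754 and 2126 bases). With principal transcript lengths, an alternative added after seeing the data, KRT17 led in untreated Empty cells at 3594 RPKM, with KRT7 at 3172 and KRT6A at 2731, and KRT8, KRT16, KRT18 and KRT15 also changed places. In untreated NeuT cells KRT6A led with either length.

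**Figure D1:**
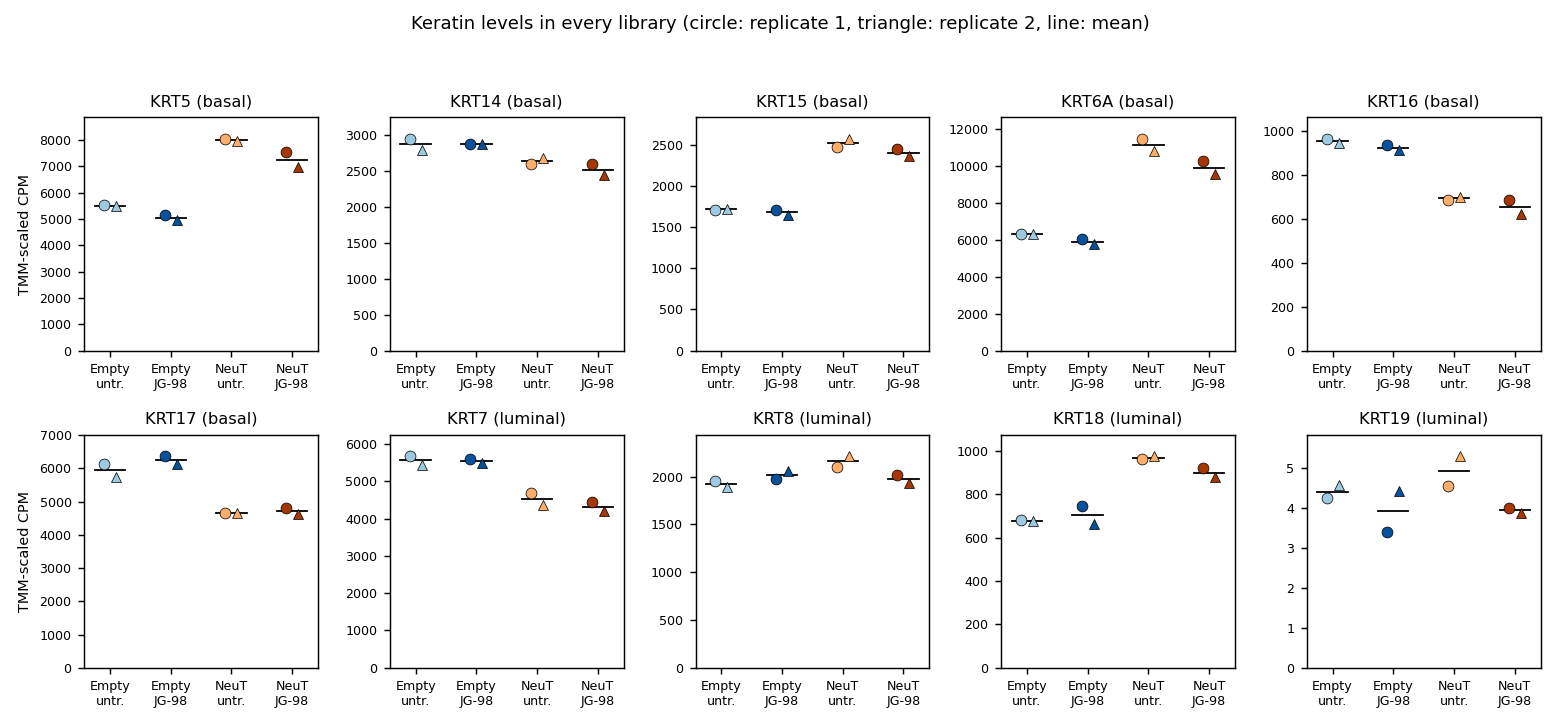
Level of each keratin in each library, as CPM scaled by TMM factors, on a linear axis from 0 that differs between panels. Circles are replicate 1, triangles replicate 2 and black lines the means of 2 libraries. KRT5, KRT15, KRT6A and KRT18 are higher and KRT14, KRT16, KRT17 and KRT7 lower in all 4 NeuT libraries than in all 4 Empty libraries.

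The first comparison was between the lines without drug. The basal keratins did not move in one direction: KRT6A, KRT5 and KRT15 were higher in NeuT, KRT16 and KRT17 were lower, and KRT14 did not pass the test. The luminal keratins were split as well, with KRT18 and KRT8 higher and KRT7 lower. In all, 8 of the 10 were called at an adjusted p under 0.05 by edgeR's quasi-likelihood test, 5 higher and 3 lower. Over all 17693 genes tested, 42% were called, 21.2% higher and 20.8% lower. The median log2 difference was 0.16 over the 10 keratins and -0.02 over all genes tested. In 9 of the 10 keratins the untreated libraries of the lines did not overlap, and the same held for 73.2% of all genes tested. The plot of levels by library shows these values, and the plot of log2 differences shows their intervals.

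KRT6A (ENSG00000205420, chromosome 12, 52487176 to 52493257, minus strand) had the largest difference of the 10. It measured 6310 and 6306 CPM in the untreated Empty libraries and 11492 and 10836 CPM in the untreated NeuT libraries. Both NeuT libraries lay far above both Empty libraries. The log2 difference was 0.82 (SE 0.054), a 1.77-fold higher level in NeuT (edgeR adjusted p = 2.14e-09). Of all genes tested, 18.5% had a larger absolute difference. Its near copy KRT6B rose more steeply, from 491 and 420 CPM to 1741 and 1771 CPM, by 1.95 on the log2 scale (SE 0.070, edgeR adjusted p = 2.92e-12). KRT6C, at 8.12 and 6.80 CPM in Empty and 19.3 and 19.2 CPM in NeuT, rose by 1.37 (edgeR adjusted p = 2.92e-08). The sum of KRT6A, KRT6B and KRT6C does not depend on how counted reads were divided among them. It was 6809 and 6733 CPM in Empty and 13251 and 12626 CPM in NeuT, a log2 difference of 0.93. If shared reads were left uncounted, the sum depends on that too. The share of stretches of 50 bases found in other genes was 47.1% in KRT6B and 32.1% in KRT6A. Per length, KRT6A was 10.96 ± 1.20 times KRT6B in untreated Empty cells and 5.00 ± 0.270 times in untreated NeuT cells (SD, n = 2), so the make-up of this gene group differed between the lines together with its sum.

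The type I chains that accompany KRT6A fell. KRT16 (ENSG00000186832, chromosome 17, 41609778 to 41615899, minus strand) measured 965 and 946 CPM in untreated Empty and 687 and 698 CPM in untreated NeuT libraries. These groups did not overlap. The log2 difference was -0.46 (SE 0.055), or 1.38-fold lower in NeuT (edgeR adjusted p = 2.72e-06). KRT17 (ENSG00000128422, chromosome 17, 41619442 to 41624842, minus strand) measured 6137 and 5729 CPM in Empty and 4651 and 4641 CPM in NeuT. Both NeuT libraries were below both Empty libraries, by -0.35 on the log2 scale (SE 0.052) or 1.28-fold (edgeR adjusted p = 3.29e-05). Pseudogenes of KRT16 held at most 0.833% as many counts as KRT16 itself, and those of KRT17 at most 1.05%.

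KRT5 and KRT15 rose by nearly the same amount. KRT5 (ENSG00000186081, chromosome 12, 52514575 to 52520530, minus strand), the type II chain of the basal layer, measured 5518 and 5487 CPM in untreated Empty and 8055 and 7977 CPM in untreated NeuT libraries. The NeuT libraries were both higher, by 0.54 on the log2 scale (SE 0.052) or 1.46-fold (edgeR adjusted p = 2.47e-07). KRT15 (ENSG00000171346, chromosome 17, 41513745 to 41522529, minus strand), a basal type I chain, measured 1707 and 1728 CPM in Empty and 2477 and 2579 CPM in NeuT. It too was higher in both NeuT libraries, by 0.56 (SE 0.050) or 1.47-fold (edgeR adjusted p = 1.19e-07).

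KRT14 (ENSG00000186847, chromosome 17, 41582279 to 41586895, minus strand), the usual partner of KRT5, did not rise with it. It measured 2946 and 2795 CPM in untreated Empty and 2598 and 2676 CPM in untreated NeuT libraries. The NeuT libraries were both lower, but the log2 difference of -0.12 (SE 0.052, 95% confidence interval -0.23 to -0.01) missed the threshold (edgeR adjusted p = 0.0703). It was called under 5 alternatives, which were limma-voom (adjusted p = 0.0334), total counts without scaling factors (edgeR adjusted p = 0.0063), a fit of the 4 untreated libraries alone (0.0035), and fits without NeuT treated replicate 1 (0.0230) or replicate 2 (0.0228). The range of its log2 difference over all alternatives was -0.19 to -0.08.

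Among the luminal keratins, KRT18 (ENSG00000111057, chromosome 12, 52948871 to 52952906, plus strand), a type I chain of simple epithelium, measured 682 and 675 CPM in untreated Empty and 960 and 977 CPM in untreated NeuT libraries. It was higher in both NeuT libraries, by 0.51 on the log2 scale (SE 0.058) or 1.43-fold (edgeR adjusted p = 1.81e-06). KRT8 (ENSG00000170421, chromosome 12, 52897187 to 52949954, minus strand), its type II partner, measured 1960 and 1894 CPM in Empty and 2104 and 2219 CPM in NeuT. The groups did not overlap, but the difference was small, 0.17 (SE 0.052) or 1.12-fold (edgeR adjusted p = 0.0169). With total counts KRT8 missed the threshold, at a log2 difference of 0.10 (edgeR adjusted p = 0.151). It also missed it in 3 fits that left 1 library in a group, where the size changed little. The log2 difference was 0.19 without Empty untreated replicate 1, 0.14 without Empty untreated replicate 2 and 0.14 without NeuT untreated replicate 2. KRT8 and KRT18 overlap on opposite strands, over 7.63% of the exonic bases of KRT8 and 17.1% of those of KRT18, and whether counting used strand is not given in the sources used here. Pseudogenes held at most 1.30% as many counts as KRT8 and 3.13% as many as KRT18.

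KRT7 (ENSG00000135480, chromosome 12, 52232520 to 52252186, plus strand), a type II keratin of glandular epithelium, measured 5683 and 5444 CPM in untreated Empty and 4699 and 4364 CPM in untreated NeuT libraries. It was lower in both NeuT libraries, by -0.30 on the log2 scale (SE 0.054) or 1.23-fold (edgeR adjusted p = 0.00027), and 7.85% of its exonic bases are shared with neighbouring transcripts, among them its antisense RNA. KRT19 (ENSG00000171345, chromosome 17, 41523617 to 41528308, minus strand), a luminal type I chain, measured 4.25 and 4.58 CPM in Empty and 4.55 and 5.31 CPM in NeuT. These libraries overlapped, and the log2 difference of 0.16 had a 95% confidence interval of -0.17 to 0.49 (edgeR adjusted p = 0.450).

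**Figure D2:**
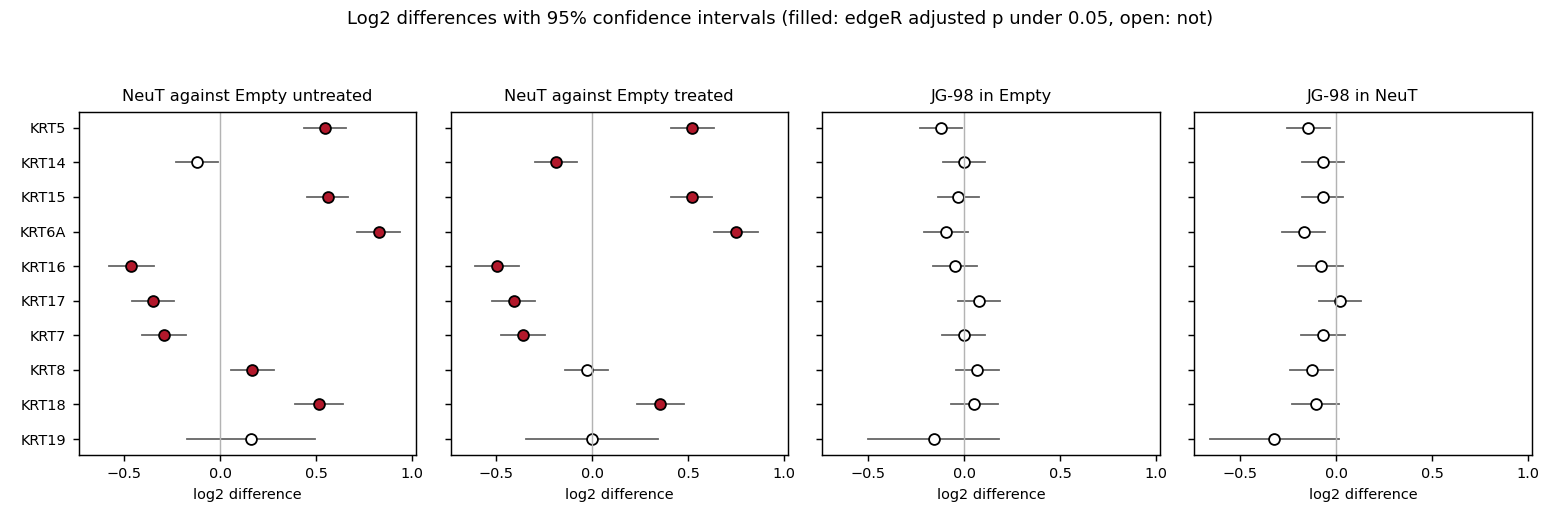
Log2 difference of each keratin in 4 comparisons, with 95% confidence intervals from the edgeR fit as horizontal lines. Filled points passed an adjusted p of 0.05 and open points did not. In both comparisons of the lines 8 points are filled and lie on both sides of 0, while in both comparisons of JG-98 all 10 are open.

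The second comparison was between the treated libraries of the lines, within the same fit of all 8 libraries, which share 1 estimate of the spread. Both classes were split there too: of the basal keratins KRT6A, KRT5 and KRT15 were higher in NeuT and KRT16, KRT17 and KRT14 lower, and of the luminal keratins KRT18 was higher and KRT7 lower. That is 8 of 10 called, 4 in each direction, where 41.7% of all genes tested were called, 21.7% higher and 20% lower. KRT6A measured 6043 and 5771 CPM in treated Empty and 10258 and 9587 CPM in treated NeuT libraries. The groups stood well apart, by 0.75 on the log2 scale (SE 0.054, edgeR adjusted p = 6.72e-09). KRT5 measured 5149 and 4958 CPM against 7528 and 6974 CPM in NeuT, and its difference was 0.52 (SE 0.052, edgeR adjusted p = 3.94e-07). KRT15 measured 1713 and 1649 CPM against 2448 and 2370 CPM in NeuT, and also differed by 0.52 (SE 0.050, edgeR adjusted p = 2.76e-07). None of these 3 genes overlapped between the lines, which held for 8 of the 10 keratins and for 67.6% of all genes tested.

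KRT16 measured 935 and 912 CPM in treated Empty and 686 and 623 CPM in treated NeuT libraries, and was lower by -0.50 on the log2 scale (SE 0.055, edgeR adjusted p = 1.22e-06). KRT17 measured 6374 and 6140 CPM against 4791 and 4625 CPM in NeuT, and was lower by -0.41 (SE 0.052, edgeR adjusted p = 6.31e-06). KRT7 measured 5596 and 5500 CPM against 4432 and 4198 CPM in NeuT, and was lower by -0.36 (SE 0.054, edgeR adjusted p = 3.54e-05). In each of these the treated NeuT libraries were both below the treated Empty libraries. KRT14, at 2872 and 2867 CPM in Empty and 2590 and 2440 CPM in NeuT, was called here, at -0.19 on the log2 scale (SE 0.052, edgeR adjusted p = 0.0070). When the fit held only those 4 libraries it missed the threshold, with the log2 difference still at -0.19 (edgeR adjusted p = 0.0601).

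KRT18 measured 746 and 662 CPM in treated Empty and 921 and 878 CPM in treated NeuT libraries, and was higher by 0.35 on the log2 scale (SE 0.058, edgeR adjusted p = 9.66e-05). KRT8, at 1978 and 2060 CPM in Empty and 2020 and 1935 CPM in NeuT, overlapped between the lines, with a log2 difference of -0.03 and a 95% confidence interval of -0.14 to 0.08 (edgeR adjusted p = 0.691). KRT19, at 3.41 and 4.42 CPM in Empty and 4.00 and 3.89 CPM in NeuT, overlapped as well (log2 difference -0.0022, edgeR adjusted p = 0.994).

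The next comparisons asked what JG-98 did within each line. No keratin of the 10 was called in Empty cells, where 0.339% of all genes tested were called (0.26% higher, 0.0791% lower), nor in NeuT cells, where 3.01% were (2.01% higher, 1.01% lower). In Empty cells KRT5 had the lowest adjusted p of the 10, with a log2 change of -0.12 (edgeR adjusted p = 0.435). Leaving out KRT19, whose low counts gave wide intervals, the 95% confidence intervals of the other 9 keratins in Empty cells lay between -0.23 and 0.19 on the log2 scale. In NeuT cells KRT6A had the lowest adjusted p of the 10, with a log2 change of -0.17 (SE 0.054, edgeR adjusted p = 0.109). Next were KRT5 with -0.14 (0.169) and KRT8 with -0.13 (0.233). There the intervals of the same 9 keratins lay between -0.28 and 0.13. In NeuT cells 9 of the 10 changes were negative, with a median of -0.09 over the 10 and 0.00 over all genes tested. KRT17 was the exception, at 0.02.

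The untreated and treated NeuT libraries of KRT6A did not overlap, at 11492 and 10836 CPM without and 10258 and 9587 CPM with JG-98. The call of KRT6A in NeuT depended on the method. It was made by DESeq2 (adjusted p = 0.0297), by limma-voom (0.0390) and by edgeR with no filter on low counts (0.0348), each with a log2 change between -0.18 and -0.17. Without NeuT treated replicate 1 the treated NeuT group held 1 library, and the spread came from the other groups. There KRT6A was lower by -0.22, KRT5 by -0.20, KRT8 by -0.16 and KRT16 by -0.15. With all libraries these log2 changes were -0.17, -0.14, -0.13 and -0.08. In that fit 11.4% of all genes tested were called, 5.15% lower, against 3.01% and 1.01% with all libraries. The remaining treated NeuT library, replicate 2, had a keratin share of counts of 3.25%, against 3.50% in replicate 1 and 3.62% to 3.67% in the untreated NeuT libraries. In the authors' deposited table for JG-98 in Empty cells the smallest adjusted p of the 10 keratins was 0.280, and in that for NeuT cells it was 0.0526, so neither table holds a keratin of the 10 under 0.05.

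The interaction term tested whether JG-98 changed a keratin differently in the lines. No keratin was called, against 0.00565% of all genes tested. KRT8 had the lowest adjusted p of the members in that edgeR test. Its change was more negative in NeuT than in Empty by -0.20 on the log2 scale (SE 0.074, edgeR adjusted p = 0.559). Without NeuT treated replicate 1 it was called, at -0.24 (edgeR adjusted p = 0.0305), in a fit that called 4.16% of all genes tested, 1.59% with a negative term. The 95% confidence intervals of the interaction, leaving out KRT19, lay between -0.35 and 0.13.

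The make-up of the keratin pool was described from the RPKM of all 55 keratin genes, as each gene's share of their sum in a library. KRT6A held 17.0% ± 0.505 of the pool in untreated Empty and 26.3% ± 1.07 in untreated NeuT cells (SD, n = 2). KRT5 rose from 10.5% ± 0.274 to 13.3% ± 0.0790, while KRT17 went from 15.6% ± 0.289 to 10.7% ± 0.00704 and KRT7 from 10.95% ± 0.00309 to 7.80% ± 0.401. KRT14 had 10.0% ± 0.0716 and 8.05% ± 0.175. The smaller shares were 3.04% and 1.92% for KRT16, 2.27% and 2.92% for KRT15, 2.20% and 2.16% for KRT8, 1.74% and 2.17% for KRT18, and 0.0149% and 0.0145% for KRT19. The 4 luminal members together had 14.9% ± 0.0519 of the pool in untreated Empty and 12.1% ± 0.287 in untreated NeuT cells, and with JG-98 14.7% ± 0.365 and 12.0% ± 0.0633. With principal transcript lengths the luminal shares were 23.7% and 20.0% in untreated Empty and NeuT cells, so their size depends on the length used. All type II keratins together made up 66.5% ± 0.138 in untreated Empty and 74.0% ± 0.300 in untreated NeuT cells, and with JG-98 66.5% ± 0.561 and 73.3% ± 0.189. The lines did not overlap in either share, with or without JG-98. With 2 libraries against 2, a two-sided exact permutation test cannot go below p = 0.333, and these shares are given without a test. Over the 10 members alone the type II share was lower in both lines, at 55.4% and 65.8%, since the pool then lacks the type II hair keratin KRT81.

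**Figure D3:**
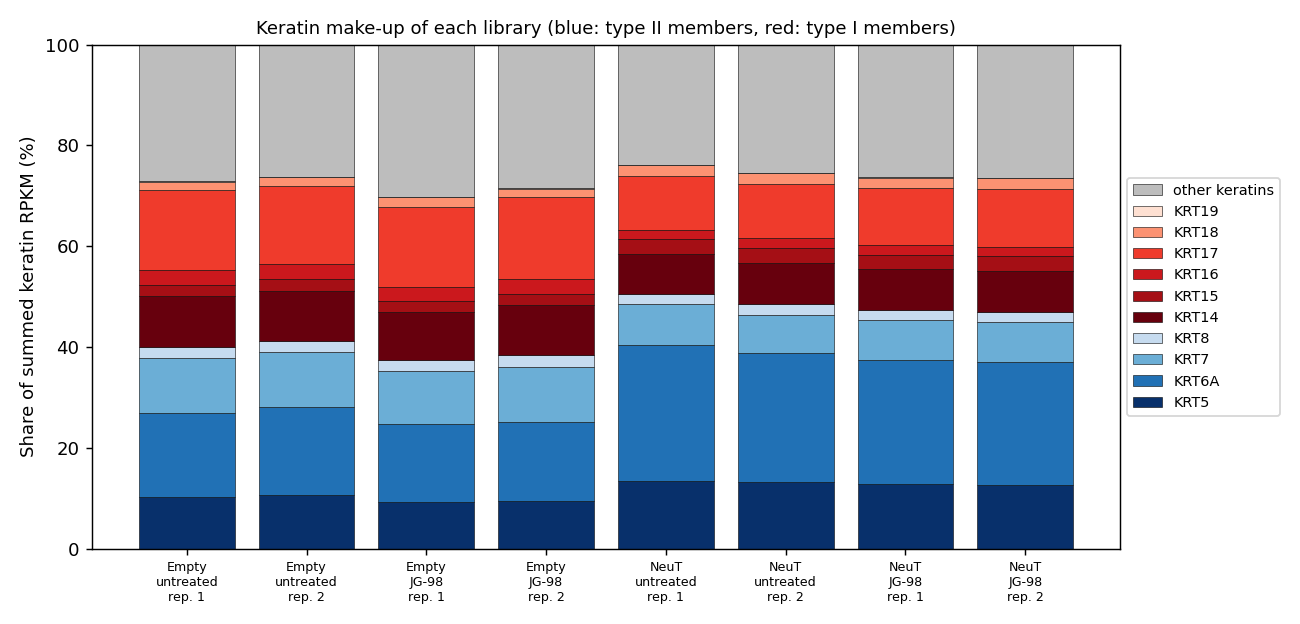
Share of each keratin in the summed RPKM of 55 keratin genes, in percent, for each of the 8 libraries. Bars are stacked with the type II members in blue, the type I members in red and the other 45 keratins in grey. The KRT6A segment is wider and the KRT17 segment narrower in the 4 NeuT libraries than in the 4 Empty libraries.

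Ratios of a type II to a type I chain within a library do not depend on the scaling between libraries. KRT5 to KRT14, per length, was 1.02 and 1.07 in untreated Empty and 1.69 and 1.63 in untreated NeuT libraries. With JG-98 it was 0.978 and 0.943 in Empty and 1.59 and 1.56 in NeuT, so every NeuT library was above every Empty library. KRT5 to KRT15 differed by less than the spread, at 4.63 ± 0.0591 in untreated Empty and 4.58 ± 0.163 in untreated NeuT cells (SD, n = 2). The ratio of KRT6A to KRT16 was 5.54 and 5.64 in untreated Empty and 14.2 and 13.1 in untreated NeuT libraries, the widest gap of the ratios computed. KRT6A to KRT17 was 1.05 and 1.13 against 2.53 and 2.39. KRT8 to KRT18 went the other way, at 1.28 and 1.25 in untreated Empty against 0.978 and 1.01 in untreated NeuT libraries. Another length multiplies a ratio by the same factor in every library and leaves its order between the lines as it is. With principal transcript lengths KRT8 to KRT18 was 2.09 ± 0.0362 in untreated Empty and 1.64 ± 0.0415 in untreated NeuT cells (SD, n = 2). KRT7 to KRT17, both lower in NeuT, overlapped between the untreated lines, at 0.694 and 0.712 against 0.757 and 0.704. With JG-98 its values were 0.658 and 0.671 in Empty and 0.693 and 0.680 in NeuT, which did not overlap.

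**Figure D4:**
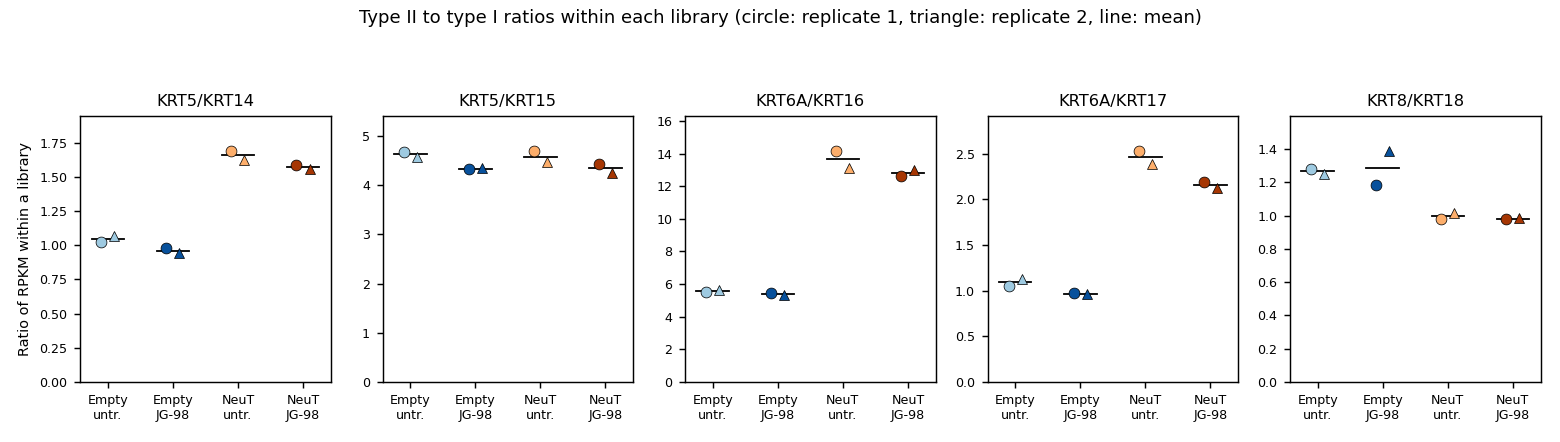
Ratio of the RPKM of a type II keratin to that of a type I keratin within each library, on linear axes from 0. Circles are replicate 1, triangles replicate 2 and lines the means of 2 libraries. KRT5/KRT14, KRT6A/KRT16 and KRT6A/KRT17 are higher in all 4 NeuT libraries, KRT8/KRT18 is lower in them, and KRT5/KRT15 overlaps between the lines.

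Of the 45 other keratin genes in the table, 14 had enough counts for the test. Without drug 2 of these were higher in NeuT, KRT6B and KRT6C, and 2 were lower, where 42% of all genes tested were called. The lower ones were KRT10, the type I keratin of suprabasal skin layers, at 210 and 218 CPM in Empty and 67.0 and 63.3 CPM in NeuT (log2 difference -1.72, edgeR adjusted p = 1.68e-11), and KRT80, a type II keratin, at 318 and 309 CPM against 72.6 and 78.5 CPM (-2.05, edgeR adjusted p = 3.01e-13). Both differences were larger than any among the 10 members. KRT81, a type II hair keratin, had a higher level per length than any member in untreated Empty cells, at 3003 RPKM ± 157 (SD, n = 2) with the exonic lengths of the count table. It measured 6007 and 5579 CPM in Empty and 5086 and 5512 CPM in NeuT, and was not called (log2 difference -0.13, edgeR adjusted p = 0.142). In KRT81, 43.7% of stretches of 50 bases also occur in other genes, mainly KRT86. Under JG-98, 3 of the 14 were higher in NeuT (KRT6B, KRT6C and KRT34) and 4 lower (KRT81, KRT10, KRT80 and KRT4), where 41.7% of all genes tested were called. KRT34 and KRT4 were below 1 CPM in every library. KRT80 was the 1 keratin of the table called for JG-98, higher in treated NeuT cells by 0.24 (edgeR adjusted p = 0.0355).

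Markers of cell types and genes that act with keratins were counted for the untreated lines, to be read against the 42% of all genes tested that were called there. Of 14 basal mammary markers other than the keratins, 13 were tested, 10 higher and 1 lower, with a median of 0.63, and their summed level was 14382 to 14807 CPM in Empty and 22478 to 23193 CPM in NeuT. TP63, a transcription factor of basal cells, was low, at 2.70 and 2.79 CPM in Empty and 7.26 and 7.74 CPM in NeuT (log2 difference 1.45). Of 6 myoepithelial contractile markers 4 were tested, 1 higher and 2 lower, with MYH11 and CNN1 at no more than 3 counts in every library. Summed, they reached 36.6 to 41.0 CPM in Empty and 30.5 to 31.7 CPM in NeuT. Of 8 luminal progenitor markers 4 were tested, 1 higher and 2 lower, at 606 to 651 CPM in Empty and 652 to 657 CPM in NeuT, with ELF5 and KIT at no more than 3 counts in every library. Of 13 mature luminal markers 10 were tested, 2 higher and 4 lower, at 1203 to 1213 CPM in Empty and 1508 to 1530 CPM in NeuT. MUC1, a luminal mucin, measured 534 and 535 CPM in Empty and 1038 and 1060 CPM in NeuT (log2 difference 0.97, edgeR adjusted p = 6.05e-10). The epithelial adhesion gene EPCAM, at 207 and 200 CPM against 93.5 and 100.7 CPM, was lower by -1.07 (edgeR adjusted p = 7.83e-10), and the claudin CLDN7, at 262 and 256 CPM against 192 and 186 CPM, by -0.45 (edgeR adjusted p = 2.01e-06), so MUC1 moved with the sum and these genes against it. GATA3 and ESR1, transcription factors of mature luminal cells, were not called (log2 differences 0.01 and -0.12).

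Of 12 mesenchymal and fibroblast markers 11 were tested, 6 higher and 1 lower. Their sum was 460 CPM in both Empty libraries and 2040 and 2256 CPM in NeuT, most of it FN1. The 1 lower marker was SNAI1, at 7.96 and 8.19 CPM in Empty and 2.03 and 1.97 CPM in NeuT (log2 difference -2.01, edgeR adjusted p = 5.96e-09). DCN was higher, at 3.19 and 3.58 CPM in Empty and 75.7 and 69.5 CPM in NeuT (4.42, edgeR adjusted p = 3.32e-12). VIM, the intermediate filament of mesenchymal cells, was low but higher in NeuT, at 0.705 and 0.228 CPM in Empty and 4.20 and 2.36 CPM in NeuT (log2 difference 2.81, edgeR adjusted p = 6.56e-05), and 24.3% of its exonic bases are shared with neighbouring genes, among them its antisense RNA. Of 8 endothelial and immune markers 4 were tested, 1 higher and 1 lower, at 12.6 to 13.8 CPM in Empty and 9.72 to 10.2 CPM in NeuT, and CD3E and CD68 had no more than 3 counts in every library. The part of cells of other types or states in the keratin differences was not tested. In these bulk libraries, a changed share of cells of one type and a changed level per cell cannot be told apart.

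Of 13 suprabasal and cornified differentiation genes 10 were tested, 3 higher and 5 lower without drug. All 16 genes listed as plakins and linkers were tested, 4 higher and 4 lower, where 42% of all genes tested were called. Not every gene of that list anchors keratin filaments, since it also holds TCHP, FBF1 and KLHL24. PLEC, which encodes plectin, had a log2 difference of 0.36 and was not called (edgeR adjusted p = 0.0691). The 22 transcription factors known to act on keratin promoters were all tested, 8 higher and 5 lower. KLF5, a factor of basal epithelial cells, rose by 0.30 (edgeR adjusted p = 0.000328), and GRHL2, an activator of epithelial genes, fell by 0.71 (edgeR adjusted p = 1.06e-06). JG-98 in Empty cells gave no call in any of these lists. In NeuT cells, where 3.01% of all genes tested were called, it gave 1 higher and 1 lower basal marker, 2 higher mature luminal markers, 2 higher plakins and linkers and 2 higher transcription factors.

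Over the 8 libraries, the genes with the pattern nearest to each keratin were found by Euclidean distance between centred log2 CPM, among 13082 non-keratin genes. PGK1, a glycolytic enzyme, was nearest to KRT5 (distance 0.0872), and BTBD2 was second for KRT5 and nearest to KRT15 (0.0851). CTSC, a lysosomal protease, was nearest to KRT6A (0.0857), and TRA2B, a splicing factor, to KRT16 (0.0551). The nearest to KRT17 was NPDC1 (0.0863), to KRT7 MRPL37 (0.0661), to KRT14 CDK5RAP1 (0.0556), to KRT8 RPS6KB2 (0.0698) and to KRT18 YIPF1 (0.0814). KRT19 had no pattern as near, RASAL1 being at 0.170. Second in rank were HTRA1 for KRT6A, RXYLT1 for KRT16, EMP1 for KRT17, MORF4L2 for KRT7, DNAJA2 for KRT14, TNFRSF1A for KRT15, TRIP6 for KRT8 and CREB3 for KRT18.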

How the data were processed

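RNA-seq gene counts of 8 MCF-10A libraries were used. The authors deposited raw counts per gene for 60617 genes, with exonic length and GRCh38 coordinates per the file headers, and no column was left without a sample. The submitters' processing notes name Trim Galore 0.5.0, FastQC 0.11.7, HISAT2 2.1.0, SAMtools 1.9, featureCounts 1.6.3 and limma, with no order. The annotation release, strand use and treatment of reads mapping to several genes are not given in the sources used here. The authors also deposited tables of JG-98 against control in each line, with log2 fold changes, p-values and scores per the file headers, and these served only for comparison.

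Genes were kept by filterByExpr (minimum count 10, minimum total 15), leaving 17693. All 8 libraries were fitted together in edgeR 4.0.16 (R 4.3.3) with TMM factors and the robust quasi-likelihood test, with Benjamini-Hochberg adjustment over all genes tested and a threshold of 0.05. CPM were scaled by TMM, and RPKM divides them by exonic length. Alternatives were DESeq2 1.42.0, limma-voom (limma 3.58.1), other scalings and filters, a replicate block and leaving out each library. The fit was tested on simulated counts for the untreated lines over 17225 genes: 80.6% of changes of 1 on the log2 scale and 43.9% of changes of 0.5 were recovered, with 8 false calls. Pseudogenes and identical stretches were counted with GENCODE 29, whose coordinates equal those of the table for 82.2% of the 58542 shared genes.

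The 10 members and the gene lists were chosen with earlier results of these data known. Named genes are the members, the 4 with the highest mean RPKM of each list, a few preset factors and markers, the other keratins that passed the filter, and per member the 2 nearest patterns. Of these, the text names the genes on which a result turns. Marker lists were basal mammary, myoepithelial contractile, luminal progenitor, mature luminal, mesenchymal and fibroblast, and endothelial and immune. Gene lists were other keratins, suprabasal and cornified differentiation, plakins and linkers, and transcription factors known to act on keratin promoters.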

Additional observations from a re-analysis of the deposited data

How the results depend on the processing

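Over 790 refits of a member's log2 difference, 772 kept their side of the threshold, 5 lost and 13 gained a call, and 0 called values changed sign. Among the 772, the sign differed in 37 refits in which the member was called in neither fit, the largest of these at 0.21 on the log2 scale. The number of keratins called for JG-98 in NeuT was 1 with no filter on low counts, 1 with DESeq2 and 1 with limma-voom, and between 0 and 4 when a library was left out. For the interaction that range was 0 to 1. The highest value in both came without NeuT treated replicate 1, and the cause was not tested. Luminal shares of the keratin pool in untreated Empty and NeuT cells were 20.3% and 16.1% over the members alone, by construction a smaller pool, and 23.7% and 20.0% with principal transcript lengths. Type II shares were 55.4% and 65.8% over the members alone, 64.5% and 71.8% with principal transcript lengths, and 66.4% in Empty with pseudogene counts added. Over the alternatives the number of genes called for all genes ranged from 5461 to 8690 between the untreated lines, 5951 to 7571 between the treated lines, 9 to 417 for JG-98 in Empty, 132 to 2133 for JG-98 in NeuT and 1 to 777 for the interaction, against 7423, 7380, 60, 533 and 1 in edgeR with all libraries.

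Replicates share only a number in the labels. Deviations of same-numbered libraries correlated at 0.24 between treated Empty and treated NeuT over 9551 genes. For the other pairs of groups the correlation lay between -0.10 and 0.06. These values do not settle whether same-numbered libraries were paired. With a replicate block, 8 keratins were called between the untreated lines, 8 between the treated lines and 0 for JG-98 in either line or for the interaction, so the block changed no keratin call. Depth limits KRT19, at under 6 CPM in every library.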
